A study of Mus musculus with 28 samples.

Results

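In the medulla of mouse kidney allografts, dendritic cells of donor origin and dendritic cells of host origin were compared beyond the difference between their strains. The comparison used 14 of the 28 arrays of the series, chosen by their labels: 3 arrays of donor cells and 3 of host cells from the medulla of grafts 3 days after transplantation, and 4 arrays each of medullary cells from homeostatic BALB/c and homeostatic C57BL/6 kidneys. Donor cells were labelled BALB/c and sorted as CD45.2+, host cells were labelled C57BL/6 and sorted as CD45.1+, and cells of all 4 groups were also sorted on CD11c and MHC class II; the homeostatic cells were sorted on CD45 with no allele stated. The donor and host cells of one graft carry one mouse number (mice 6, 7 and 8 for replicates 1, 2 and 3), and the homeostatic kidneys came from 8 other mice. No isograft and no host cells from outside a graft enter the comparison, so transplantation, rejection and the route by which host cells reached the kidney cannot be told apart.

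Kidney dendritic cells and macrophages form a network between the tubules and share surface markers, CD11c and MHC class II among them. Resident macrophages are known for complement C1q, the F4/80 antigen and the fractalkine receptor, while conventional dendritic cells are known for antigen presentation to T cells. In a graft, passenger leukocytes of the donor are gradually joined and replaced by cells of the recipient.

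The tested quantity, called the interaction, is the donor-host difference in the graft minus the BALB/c-C57BL/6 difference in homeostatic kidneys. The same number is the donor change (donor minus homeostatic BALB/c) minus the host change (host minus homeostatic C57BL/6), in log2 units of array signal. Each change compares cells of different mice and does not follow the same cells over time. A positive interaction therefore does not by itself say that donor cells had more of a transcript than host cells. A gene passed when its adjusted p by limma, over the 14346 genes tested, was under 0.05.

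The sorted markers were not held equally in all groups. Ptprc, which encodes CD45, averaged 12.79 ± 0.04 (SD, n = 4) in C57BL/6, 12.52 ± 0.17 (n = 4) in BALB/c, 9.67 ± 1.09 (n = 3) in host and 11.23 ± 0.24 (n = 3) in donor arrays. Itgax, which encodes CD11c, read 7.25, 7.59 and 7.30 on the donor arrays and 7.52, 7.29 and 8.16 on the host arrays, against 10.89 to 11.36 in C57BL/6 and 7.20 to 9.53 in BALB/c. All donor arrays and host replicates 1 and 2 thus lay below 7.62, the highest 40th percentile of a medulla array. H2-Aa, an MHC class II chain, stayed at 10.29 or above on every medulla array. The mean over 21 leukocyte-wide genes was 11.27 to 11.39 in C57BL/6, 10.60 to 11.11 in BALB/c, 9.24 to 10.37 in donor and 8.20 to 9.30 in host arrays. The mean over 16 epithelium-wide genes ran the other way, at 7.74 to 8.09, 8.20 to 8.94, 9.61 to 10.09 and 9.95 to 10.49. Lower leukocyte transcripts in bulk RNA cannot be told apart from fewer leukocytes in the sort, and the part of epithelial RNA in the results below was not tested. The homeostatic BALB/c medulla arrays also had a narrower spread over probesets (SD 1.46 to 1.67, against 1.65 to 1.80 on the other medulla arrays). Over all probesets, each correlated on average at 0.788 to 0.856 with the others of its group, against 0.896 or more in the other medulla groups. Pairwise correlations from a separate calculation reached down to 0.590 in BALB/c medulla, against 0.810 or more within the other groups. That calculation gave at most 0.914 in C57BL/6 medulla, where the averages above were 0.940 or more. Its values can therefore be compared between groups only, and not with those averages.

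In the graft medulla, transcripts of complement and of several macrophage receptors lay near the homeostatic BALB/c level in donor cells and were low in host cells. Csf1r, the receptor for macrophage colony-stimulating factor, lay below the homeostatic level of the strain in both, and further below in host cells. Of the genes tested, 163 passed (1.14%), with 108 higher (0.753%) and 55 lower (0.383%). With the graft mouse as a fixed block, which the labels support, 254 genes passed, 149 higher and 105 lower. The count fell to 90 without donor replicate 3, to 98 without C57BL/6 replicate 4 and to 104 without C57BL/6 replicate 1. The median interaction of all genes was -0.19, and centring each array moved it to -0.04. Medians of gene lists are set against it below, and their counts of passing genes against the shares of 0.753% higher and 0.383% lower.

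Among the 108 higher genes, the host mean lay below the C57BL/6 mean in all 108, and in 100 (92.6%) every host array lay below every C57BL/6 array, as in 9.97% of all genes tested. In 83 of them (76.9%) the host change passed as lower (5.21% of all genes tested did) while the donor change did not pass. Another 11 had a passing lower change in both, Cd86, Mmp12, Cd74 and Apoe among them, with the host change further below 0. The median host change of the 108 was -3.52 and their median donor change was -0.29. Among the 55 lower genes, the host change passed as higher (6.27% of all genes tested did) and the donor change did not pass in 43 (78.2%), with median changes of 1.46 and -0.15. In 49 of the 55 (89.1%) every host array lay above every C57BL/6 array, as in 14.3% of all genes tested. Because the interaction is built from these changes, the counts describe which groups carried it and test nothing further.

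**Figure D1:**
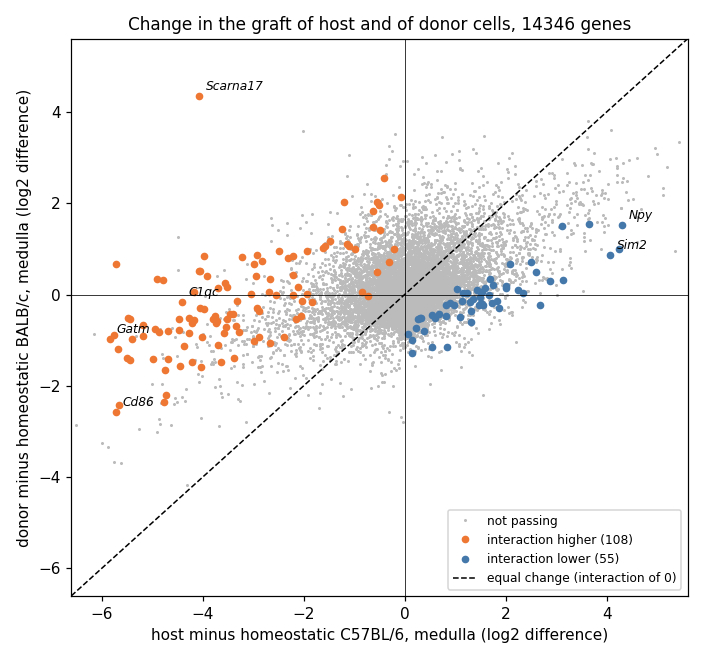
Host change (x axis) against donor change (y axis) in medulla for the 14346 genes tested, both as log2 differences, with the 108 genes of higher interaction in orange, the 55 of lower interaction in blue and a dashed line at equal change. Most orange points lie far to the left and close to 0 in height, and most blue points lie to the right and close to 0 in height.

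Seen as donor against host, the 108 higher genes were of different kinds. In 79 (73.1%) all 3 donor arrays lay above all 3 host arrays, which 4.03% of all genes tested showed. In 42 (38.9%) the donor-host difference passed as higher (0.418% of all genes tested did) with no passing strain difference, which is the pattern of C1qc, C3ar1, Mrc1 and Gatm. In 48 others (44.4%) the strain difference passed as lower in BALB/c (2.63% of all genes tested did) and the donor-host difference did not pass. Every BALB/c array lay below every C57BL/6 array in 72 of the 108 (66.7%, against 4.94% of all genes tested), and above it in 43 of the 55 lower genes (78.2%, against 18.6%). The interaction is also built from the donor-host and strain differences, so these counts too are descriptive and test nothing further.

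Complement genes were the list with the highest median interaction. Of 10 members tested, 5 passed as higher and none as lower: the complement receptors C3ar1, C5ar1 and Itgam and the C1q chains C1qa and C1qc. The median over the 10 was 2.72, against -0.19 over all genes, and ranged from 2.36 to 3.42 over 24 other settings. In 1 of the 10 the interaction lay below 0, at -0.59. None of the 10 had a passing donor change, while 7 had a passing lower host change (5.21% of all genes tested did). All 5 passed under each of those settings.

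C3ar1, the receptor for the anaphylatoxin C3a, read 12.78, 12.65, 12.53 and 12.53 in C57BL/6, 12.29, 12.46, 12.33 and 12.27 in BALB/c, 6.84, 6.68 and 8.03 in host, and 12.03, 10.96 and 12.45 in donor cells. Host arrays were the low ones and did not overlap any other group. The interaction was 4.91 ± 0.41 (SE; adjusted p = 2.5e-07, limma), a 30.1-fold difference between the fold changes, with a host change of -5.44 and a donor change of -0.52.

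C1qc, a chain of the C1q molecule that starts the classical pathway, averaged 12.86 in C57BL/6 (n = 4) and read 11.85 to 12.87 in BALB/c, 8.79, 8.57 and 8.03 in host, and 12.36, 11.66 and 13.01 in donor cells. Donor values overlapped those of BALB/c and lay above every host value. Its interaction was 4.24 ± 0.35 (adjusted p = 2.5e-07), and that of its partner C1qa was 3.42 ± 0.57 (adjusted p = 0.0026). C1qa stood at 7.93 ± 0.23 (SD, n = 3) in host and 11.15 ± 1.13 (n = 3) in donor cells, where replicate 2 was lowest at 9.86.

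C5ar1 and Itgam differed from these in the strain term. C5ar1, the receptor for C5a, read 8.11, 8.64 and 9.77 in donor and 6.84, 6.60 and 6.58 in host cells, with homeostatic BALB/c at 7.60 to 9.84 and C57BL/6 at 10.98 to 11.64. Its interaction of 5.10 ± 0.65 (adjusted p = 1.1e-04) was made of a donor-host difference of 2.16 (adjusted p = 0.041) and a strain difference of -2.94 (adjusted p = 4.9e-04). Itgam, the CD11b chain of complement receptor 3, read 8.95, 8.35 and 9.43 in donor and 6.54, 6.54 and 7.12 in host cells, against 9.91 to 9.99 in C57BL/6 and 7.26 to 8.71 in BALB/c. Its interaction was 4.04 ± 0.42 (adjusted p = 5.4e-06), again from both terms. In both genes donor lay above host in all arrays while BALB/c lay below C57BL/6.

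Resident macrophage markers followed. Of 11 tested, 5 passed as higher (Adgre1, Csf1r, Cx3cr1, C1qa and C1qc), and the median was 2.01. C1qa and C1qc also stand in the complement list. The interaction lay below 0 in 2 of the 11, the lowest at -0.32. The host change passed as lower in 7 of the 11 (5.21% of all genes tested) and the donor change in 1, Csf1r (1.45% of all genes tested). Csf1r had a donor change of -1.02 (adjusted p = 0.032), a host change of -2.98 (adjusted p = 3.4e-08) and an interaction of 1.96 ± 0.36 (adjusted p = 0.0057). The mean over the list was 11.24 to 11.35 in C57BL/6, 11.09 to 11.16 in BALB/c, 10.27 to 11.14 in donor and 8.87 to 9.11 in host arrays, so host arrays lay apart from all others. Adgre1, which encodes the F4/80 antigen, read 10.77, 9.78 and 11.76 in donor and 6.48, 7.95 and 6.26 in host cells, against 11.23 to 12.13 in BALB/c and 12.20 to 12.37 in C57BL/6. Its interaction was 4.43 ± 0.57 (adjusted p = 1.3e-04). Cx3cr1, the fractalkine receptor, read 11.82, 10.68 and 11.30 in donor and 8.58, 8.58 and 8.43 in host cells, with 11.35 to 12.13 in BALB/c and 12.14 to 12.48 in C57BL/6. Its interaction was 3.29 ± 0.42 (adjusted p = 1.1e-04). Donor and BALB/c values overlapped for both genes and host values were low.

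**Figure D2:**
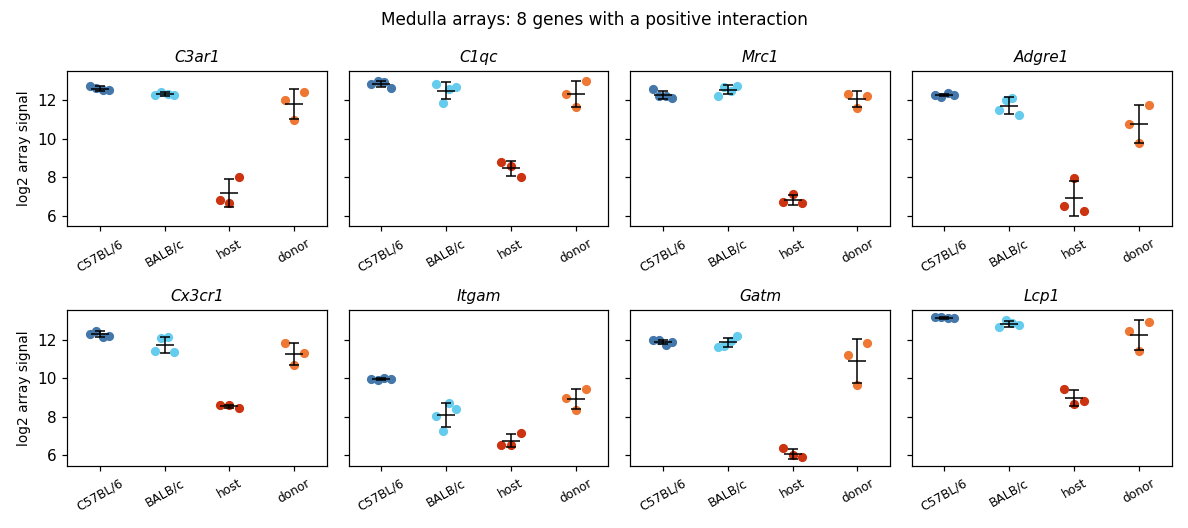
Log2 array signal of 8 genes with a positive interaction on the 14 medulla arrays, with 1 point per array and black marks for the mean and SD of homeostatic C57BL/6 (n = 4), homeostatic BALB/c (n = 4), host (n = 3) and donor cells (n = 3). Host cells are lowest in each panel, at 6.06 on average for Gatm, where donor cells average 10.89.

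Among phagocytic and scavenger receptors, 2 of 17 passed as higher, with a median of 1.83. The interaction lay below 0 in 4 of the 17, the lowest at -1.50. A passing lower host change was seen in 11 of 17 (5.21% of all genes tested). The donor change passed as lower in 1 (1.45% of all genes tested), Cd36 (-2.73, adjusted p = 9.6e-04). Mrc1, the mannose receptor, read 12.35, 11.59 and 12.24 in donor and 6.72, 7.12 and 6.65 in host cells, with 12.26 to 12.77 in BALB/c and 12.14 to 12.60 in C57BL/6. Host cells alone were low. The interaction was 4.96 ± 0.50 (adjusted p = 3.4e-06). Msr1, a class A scavenger receptor, read 11.32, 10.42 and 11.50 in donor and 5.89, 6.15 and 7.76 in host cells, so that donor values lay within the homeostatic range of 9.40 to 11.71 and host values below it. Its interaction of 3.85 ± 0.82 (adjusted p = 0.019) lost its call without donor replicate 1 (adjusted p = 0.053) or replicate 3 (adjusted p = 0.065); over all settings adjusted p was 0.0014 to 0.065.

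Gatm, Hpgd and Gpr65, of which Gpr65 belongs to no list, were also low in host cells on average, and their donor changes did not pass. Gatm, the enzyme that makes the creatine precursor guanidinoacetate, read 11.18, 9.63 and 11.85 in donor and 6.35, 5.97 and 5.87 in host cells, against 11.63 to 12.17 in BALB/c and 11.74 to 11.99 in C57BL/6. Its interaction was 4.87 ± 0.44 (adjusted p = 7.6e-07). Gatm was placed in the proximal tubule list, where none of the other 15 members passed and the median was -0.19, equal to that of all genes. Hpgd, which inactivates prostaglandins, read 12.20, 12.24 and 12.75 in donor and 7.29, 11.13 and 7.61 in host cells, with 12.55 to 13.07 in homeostatic cells. Host replicate 2 stood near the other groups. Its interaction was 3.74 ± 0.80 (adjusted p = 0.019), with adjusted p = 0.064 without donor replicate 3 and 0.060 without host replicate 3 (1.3e-06 to 0.13 over all settings). Gpr65, a proton-sensing receptor, had 11.56 ± 0.59 (SD, n = 3) in donor and 7.30 ± 0.86 (n = 3) in host cells and an interaction of 4.51 ± 0.70 (adjusted p = 0.0012).

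Scarna17 and the membrane protein gene Ms4a6b had the highest interactions, and both rested on scattered groups. Scarna17, a small Cajal body RNA, read 13.13, 11.86 and 13.16 in donor and 8.08, 9.12 and 7.25 in host cells, and 11.70 to 12.58 in C57BL/6, but 6.97, 6.97, 11.89 and 7.68 in BALB/c. BALB/c replicate 3 stood with the C57BL/6 arrays. The interaction was 8.40 ± 1.27 (adjusted p = 9.0e-04), with adjusted p from 2.7e-06 to 0.016 over the other settings. Ms4a6b read 12.22, 9.50 and 12.08 in donor and 6.33, 5.86 and 6.31 in host cells, with 7.87 in BALB/c replicate 1 and 10.85 to 12.29 on the other homeostatic arrays. Its interaction was 6.39 ± 1.40 (adjusted p = 0.022), and adjusted p was 0.074 without donor replicate 1 and 0.073 without replicate 3 (0.0028 to 0.074 over all settings).

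Other receptors had interactions with more scatter between arrays. Milr1, an inhibitory immunoglobulin-like receptor, read 9.88, 8.59 and 8.83 in donor and 6.12, 6.67 and 6.51 in host cells, and its interaction of 5.24 ± 1.16 (adjusted p = 0.024) was lost when any of 4 arrays was left out (adjusted p = 0.051 to 0.076). Cysltr1, a leukotriene receptor, read 10.26, 7.51 and 11.28 in donor and 7.55, 6.30 and 7.23 in host cells, which overlapped. Its interaction was 4.58 ± 0.96 (adjusted p = 0.016), and adjusted p was 0.054 without donor replicate 1 and 0.065 without replicate 3 (4.1e-04 to 0.065 over all settings). Donor replicate 2 was the low donor array for both genes.

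Of 17 lysosomal and lipid handling genes 2 passed as higher, with a median of 0.47. Apoe, the lipid carrier, read 12.31, 11.98 and 13.13 in donor and 10.32, 10.15 and 10.31 in host cells, with 13.28 to 13.53 in BALB/c and 12.29 to 12.84 in C57BL/6. Unlike most of the higher genes it was higher in homeostatic BALB/c than in homeostatic C57BL/6 cells, and its interaction was 1.45 ± 0.30 (adjusted p = 0.015). Over all settings adjusted p was 0.0022 to 0.083, and the call was lost only on the medulla arrays alone. Ctsz, a cathepsin, had 1.61 ± 0.38 (adjusted p = 0.038), which was lost when any of 9 arrays was left out (adjusted p = 0.055 to 0.11). Edem1, which sends misfolded glycoproteins to degradation, was the 1 of 13 unfolded protein response genes that passed, at 2.64 ± 0.48 (adjusted p = 0.0054). Tgfbi, a secreted matrix protein, passed at 3.00 ± 0.58 (adjusted p = 0.0096; 5.3e-04 to 0.060 over all settings, lost only on the medulla arrays alone), and with Mmp12 made up the 2 of 12 matrix genes that passed, in a list with 8 of 12 interactions below 0 and a median of -0.25.

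The promoters of the higher genes were examined for GAGGAA, the core letters bound by PU.1, an ETS-family factor of myeloid cells. Windows of 300 bases, from 250 before to 50 after the gene start, were taken from the RefSeq table (GRCm38.p6) and searched on both strands. A window was found for 82 of the 108 higher genes, and 46 of these 82 (56.1%) held the motif, as did 14 of 43 lower genes (32.6%), 3472 of 11393 tested genes (30.5%) and 9289 of all 32851 windows (28.3%). The longer string GAGGAAGT, which contains the motif, was in 10 of the 82 (12.2%) and in none of the 43. It was in 407 of 11393 tested genes (3.57%) and in 3.2% of all windows. A gene counted as a match when any of its windows matched, while the shares of all windows were taken per window. The windows of C3ar1, C5ar1, Cx3cr1, Gatm and Lcp1 held no match. A match is a string of letters and no measured binding site. The shares were not set against those of other leukocyte genes, and a part of PU.1 was not tested. The windows below were chosen after their matches were seen, as examples from a C1q chain, a scavenger receptor, an integrin and a protease, and capitals mark each match on either strand.
C1qc promoter, chr4:136892865-136893164, minus strand: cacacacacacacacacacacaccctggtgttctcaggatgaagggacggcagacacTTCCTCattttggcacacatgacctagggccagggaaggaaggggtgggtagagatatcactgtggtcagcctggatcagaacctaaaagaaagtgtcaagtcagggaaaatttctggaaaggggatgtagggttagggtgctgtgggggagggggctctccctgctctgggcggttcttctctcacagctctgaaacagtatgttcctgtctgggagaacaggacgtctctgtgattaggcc
Mrc1 promoter, chr2:14229164-14229463, plus strand: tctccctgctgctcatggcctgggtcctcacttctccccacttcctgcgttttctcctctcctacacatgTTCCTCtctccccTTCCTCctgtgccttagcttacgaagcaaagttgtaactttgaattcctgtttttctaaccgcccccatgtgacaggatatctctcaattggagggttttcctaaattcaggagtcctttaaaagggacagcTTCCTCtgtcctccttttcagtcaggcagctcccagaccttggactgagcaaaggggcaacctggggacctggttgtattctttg
Itgam promoter, chr7:128062390-128062689, plus strand: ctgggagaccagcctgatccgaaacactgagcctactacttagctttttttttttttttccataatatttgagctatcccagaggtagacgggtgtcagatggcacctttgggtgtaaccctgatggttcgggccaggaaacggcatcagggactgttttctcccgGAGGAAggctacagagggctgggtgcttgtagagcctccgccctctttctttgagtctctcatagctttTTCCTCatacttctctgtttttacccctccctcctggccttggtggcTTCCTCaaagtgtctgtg
Ctss promoter, chr3:95526536-95526835, plus strand: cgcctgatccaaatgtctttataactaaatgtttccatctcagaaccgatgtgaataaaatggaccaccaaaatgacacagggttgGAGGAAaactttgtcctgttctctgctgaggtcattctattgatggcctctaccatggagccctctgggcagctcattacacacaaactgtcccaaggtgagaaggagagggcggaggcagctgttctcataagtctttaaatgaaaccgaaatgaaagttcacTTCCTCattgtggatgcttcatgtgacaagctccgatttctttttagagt

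Antigen presentation genes also had positive interactions, and for some of them the donor change passed as lower as well. Of 10 MHC class II genes tested, 4 passed as higher (H2-Ab1, H2-Eb1, Cd74 and Ctss), and the median was 1.71. The host change passed as lower in 10 of 10 (5.21% of all genes tested). The donor change passed as lower in 3 of 10 (1.45% of all genes tested), namely Cd74, H2-Eb1 and Ifi30; that of Ctss was -0.61 (adjusted p = 0.30) and that of H2-Ab1 -1.10 (adjusted p = 0.12). Ctss, the protease that trims the invariant chain, read 12.40, 11.48 and 12.31 in donor and 10.49, 9.01 and 9.13 in host cells, against 12.53 to 12.88 in BALB/c and 13.18 to 13.37 in C57BL/6. Donor lay above host and below BALB/c in every array. Its interaction was 3.11 ± 0.49 (adjusted p = 0.0012).

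Cd74, the invariant chain, read 11.21, 10.08 and 11.87 in donor and 8.83, 8.20 and 9.46 in host cells, with 12.51 to 12.83 in BALB/c and 12.85 to 12.89 in C57BL/6. Both graft groups lay below both homeostatic groups, host lower. The donor change was -1.59 (adjusted p = 0.014), the host change -4.03 (adjusted p = 2.0e-08) and the interaction 2.44 ± 0.47 (adjusted p = 0.0090; 4.1e-04 to 0.056 over all settings, lost only on the medulla arrays alone). H2-Eb1, an MHC class II chain, had the smallest of these interactions, 1.59 ± 0.26 (adjusted p = 0.0019), with 11.28 ± 0.50 (SD, n = 3) in donor and 10.25 ± 0.30 (n = 3) in host cells. H2-Ab1, another chain, read 10.84, 9.81 and 11.66 in donor and 10.92, 8.87 and 8.84 in host cells, which overlapped. Its interaction of 2.60 ± 0.56 (adjusted p = 0.021) came with a donor-host difference of 1.23 that did not pass (adjusted p = 0.39), and the call was lost without donor replicate 1 or 3 or host replicate 2 or 3 (adjusted p = 0.053 to 0.080, and 3.1e-04 to 0.14 over all settings). For probes of polymorphic MHC genes, hybridisation that differs between strains was not tested.

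Cd86, a costimulatory ligand, was the 1 of 16 maturation genes that passed, and the median of that list was 0.19 (-0.01 under 1 of 24 other settings). It read 9.01, 7.85 and 10.46 in donor and 6.08, 6.18 and 6.34 in host cells, against 11.25 to 12.35 in homeostatic cells. Donor cells lay between the host and the homeostatic arrays. Its interaction of 3.14 ± 0.77 (adjusted p = 0.047) lay close to the threshold and was lost when any of 13 of the 14 arrays was left out (adjusted p = 0.055 to 0.12). Mmp12, the macrophage elastase, had the same order, with 10.08 ± 1.41 (SD, n = 3) in donor, 7.16 ± 0.40 (n = 3) in host and 12.50 ± 0.30 (n = 4) in BALB/c cells, and an interaction of 3.23 ± 0.64 (adjusted p = 0.010; 0.0012 to 0.057 over all settings, lost only on the medulla arrays alone).

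Markers of dendritic cells differed between lists. Of 9 pan dendritic cell genes 3 passed as higher (Cd74, H2-Ab1 and Kmo), 7 had an unadjusted p under 0.05 and 9 lay above 0 (median 1.80). Of 7 type 2 conventional dendritic cell genes 1 passed (Itgam), 5 had an unadjusted p under 0.05 and 6 lay above 0 (median 1.77). These medians lay near the 2.01 of resident macrophage markers. The host change passed as lower in 8 of the 9 and 5 of the 7 (5.21% of all genes tested). Of 9 type 1 genes none passed, 2 had an unadjusted p under 0.05 and 7 lay above 0 (median 0.17). With the fixed graft-mouse block 1 of them passed. The type 1 list averaged 8.06 to 8.53 in donor and 8.00 to 8.35 in host arrays, which overlapped, against 9.17 to 10.06 in homeostatic arrays. Clec9a, a type 1 dendritic cell receptor for dead cells, read 6.39, 7.07 and 7.35 in donor and 9.28, 6.25 and 6.77 in host cells, and its interaction of 2.00 ± 1.29 did not pass (adjusted p = 0.41). Of 5 monocyte genes none passed in limma (2 at an unadjusted p under 0.05), with a median of 1.01. Ccr2, the receptor that draws monocytes out of the marrow, had an interaction of 2.45 ± 0.67 (adjusted p = 0.077, 0.017 with the fixed graft-mouse block, and 0.012 to 0.20 over all settings).

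Leukocyte-wide genes shared the direction, with 20 of 21 interactions above 0, a median of 1.34, and 3 passing. Lcp1, an actin-bundling protein of leukocytes, read 12.47, 11.39 and 12.91 in donor and 9.45, 8.63 and 8.81 in host cells, against 12.65 to 13.18 in homeostatic cells. Its interaction was 3.62 ± 0.35 (adjusted p = 1.7e-06). Cd52, a surface glycoprotein, read 11.79, 9.48 and 11.93 in donor and 8.80, 7.60 and 6.88 in host cells, and its interaction was 4.04 ± 0.64 (adjusted p = 0.0016). Laptm5, a lysosomal protein, read 12.28, 10.67 and 13.17 in donor and 10.30, 7.79 and 8.50 in host cells, and its interaction was 3.58 ± 0.70 (adjusted p = 0.010; 5.8e-04 to 0.080 over all settings, lost only on the medulla arrays alone). Donor replicate 2 was the lowest donor array for all 3 genes and still lay above every host array. Ptprc itself had an interaction of 1.83 ± 0.57 that did not pass (adjusted p = 0.12, 0.033 with the fixed graft-mouse block, and 0.012 to 0.30 over all settings).

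Klra2, H60b and Kmo had a passing strain difference and no passing donor-host difference. For each of them every homeostatic C57BL/6 array lay above every other medulla array. Klra2, an inhibitory Ly49-family receptor, read 12.04 to 12.48 in C57BL/6, 6.28, 7.06, 8.67 and 9.18 in BALB/c, 6.52, 6.44 and 6.51 in host and 7.47, 6.73 and 6.55 in donor cells. Host and donor were both low, and the donor-host difference was 0.43 (adjusted p = 1). The interaction of 4.88 ± 0.79 (adjusted p = 0.0019) came from a strain difference of -4.45 and a host change of -5.76. Its family differs between strains, and whether the probes read both strains alike was not tested. In BALB/c cortex they read 9.01 to 11.00.

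H60b, a ligand of the NK receptor NKG2D from a family that varies between strains, read 9.91 to 11.25 in C57BL/6, 6.46 to 7.52 in BALB/c, 6.72, 6.24 and 6.41 in host and 8.22, 7.59 and 6.89 in donor cells. Its interaction was 4.60 ± 0.89 (adjusted p = 0.0098). Kmo, an enzyme of tryptophan breakdown, read 10.65 to 11.64 in C57BL/6, 6.95 to 8.82 in BALB/c, 7.79, 6.47 and 6.48 in host and 6.27, 6.58 and 6.80 in donor cells. The donor mean lay below the host mean, although the interaction was 3.24 ± 0.73 (adjusted p = 0.027); leaving out any of 8 of the 14 arrays lost the call (adjusted p = 0.052 to 0.080). In cortex Kmo averaged 10.37 in C57BL/6, 8.05 in BALB/c, 11.43 in host and 9.68 in donor cells. Klra2 averaged 10.17 in BALB/c and 9.53 in donor cortex. In 9 of the 108 higher genes, H60b among them, the donor, host and BALB/c means all lay under 7.62, the highest 40th percentile of a medulla array, although donor replicate 1 of H60b, at 8.22, lay above it.

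A further 10 of the 108 passed as higher through the donor change with no passing host change. Npm1, Cdk13, Supt16 and Ep400, named after their values were seen, are among them and are expressed in most cell types. Among the 55 lower genes, 9 had the mirror image, a passing lower donor change with no passing host change. Krt6a, Gdf6 and Vtcn1, also named after their values were seen, are examples. Of all genes tested, 1.73% had a passing higher donor change and 1.45% a passing lower one. In both sets the change against the homeostatic BALB/c arrays carried the interaction, and the part of the narrower spread of those arrays was not tested.

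The lower genes had smaller interactions, with a median of -1.54 and a range of -3.24 to -0.80. In 38 of 55 (69.1%) all donor arrays lay below all host arrays, which 4.28% of all genes tested showed. That count is likewise built into the interaction and tests nothing further. Of the 16 epithelium-wide genes 1 passed as lower (Spint2), with a median interaction of -0.92 and 15 of 16 below 0. In that list 14 of 16 genes had a passing higher host change (6.27% of all genes tested) and 6 of 16 a passing higher donor change (1.73%). The median donor change of the list was 1.46, and that of the 55 lower genes was -0.15. Those 55 were picked by the interaction, which the donor change enters, so setting these medians side by side tests nothing further. Of 14 collecting duct genes 1 passed (Aqp4), with a median of -0.81 and 14 of 14 below 0. Of 14 loop of Henle and distal tubule genes none passed in limma (none at an unadjusted p under 0.05 either), with a median of -0.39.

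Aqp4, a basolateral water channel of the collecting duct, read 9.13, 8.62 and 8.75 in host and 7.88, 7.34 and 7.26 in donor cells, against 7.02 to 7.55 in BALB/c and 6.73 to 6.98 in C57BL/6. Host arrays were the high ones. The interaction was -1.82 ± 0.24 (adjusted p = 1.5e-04). Sim2, a transcription factor expressed in kidney tubules, read 10.97, 10.42 and 10.77 in host and 7.77, 9.92 and 7.56 in donor cells, against 6.44 to 8.13 in homeostatic cells. Donor replicate 2 approached the host values. The interaction was -3.21 ± 0.53 (adjusted p = 0.0023; 6.8e-07 to 0.053 over all settings, lost only on the medulla arrays alone). Defb42, a beta-defensin, read 10.11, 9.37 and 12.54 in host and 8.52, 8.54 and 7.62 in donor cells, with an interaction of -3.24 ± 0.62 (adjusted p = 0.0090; 5.1e-04 to 0.13 over all settings, lost only on the medulla arrays alone).

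Tmem72, a membrane protein of kidney, was 10.58 ± 0.50 (SD, n = 3) in host and 9.09 ± 0.28 (n = 3) in donor cells, with an interaction of -2.10 ± 0.42 (adjusted p = 0.012). Lrrc1, a scaffold protein of polarised cells, was 9.05 ± 1.17 (n = 3) in host and 6.74 ± 0.43 (n = 3) in donor cells, with an interaction of -2.59 ± 0.45 (adjusted p = 0.0040; 7.0e-07 to 0.074 over all settings, lost only on the medulla arrays alone). Acaa2, a mitochondrial thiolase, had an interaction of -2.92 ± 0.63 (adjusted p = 0.021); without C57BL/6 replicate 4, donor replicate 1 or donor replicate 3 adjusted p was 0.055 to 0.068, and over all settings 0.0064 to 0.068. Host cells were highest for all 3 genes.

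The remaining named lower genes had their highest group mean in host cells. Zfp791, a zinc finger gene, read 9.43, 8.75 and 10.75 in host and 6.18, 8.03 and 6.35 in donor cells, with an interaction of -2.82 ± 0.61 (adjusted p = 0.020; 0.0014 to 0.16 over all settings). Prr15 read 10.26, 9.82 and 8.27 in host and 7.77, 7.54 and 7.52 in donor cells, with -2.31 ± 0.50 (adjusted p = 0.022; 4.9e-04 to 0.12). Epb41l4a, a band 4.1 family protein, had -2.14 ± 0.40 (adjusted p = 0.0066; 4.3e-04 to 0.069) and Spag5, a spindle protein, -1.98 ± 0.43 (adjusted p = 0.023; 0.0065 to 0.079). Hoxb5, a homeobox gene of kidney tubules, lay above both homeostatic means in both graft groups, at 10.83 ± 0.43 (SD, n = 3) in host and 9.42 ± 0.79 (n = 3) in donor cells. Its interaction of -2.11 ± 0.52 (adjusted p = 0.049) was lost under 14 of 24 other settings. Cacng7, a calcium channel subunit, read 10.55, 10.49 and 8.03 in host and 7.80, 7.75 and 8.08 in donor cells, with 8.15 to 8.23 in BALB/c and 7.71 to 7.94 in C57BL/6. Host replicate 3 lay below every BALB/c array and within the donor range, and the interaction of -2.18 ± 0.51 (adjusted p = 0.033) was also lost under 14 of 24 settings.

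For Npy and Spint2 the donor and host arrays overlapped and the homeostatic strains did not. Npy, neuropeptide Y, read 12.32, 12.18 and 12.81 in host and 12.63, 11.79 and 12.34 in donor cells, with 7.96 to 8.27 in C57BL/6 and 11.79, 9.39, 12.18 and 9.57 in BALB/c. Its interaction of -2.79 ± 0.64 (adjusted p = 0.032) lost the call when any of 7 of the 14 arrays was left out (adjusted p = 0.056 to 0.081). Spint2, a protease inhibitor of epithelia, was 10.48 ± 0.51 (SD, n = 3) in host and 10.23 ± 0.02 (n = 3) in donor cells, with 8.39 in C57BL/6 and 9.57 in BALB/c on average. Its interaction of -1.43 ± 0.32 (adjusted p = 0.026) lost the call when any of 7 arrays was left out (adjusted p = 0.053 to 0.081).

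**Figure D3:**
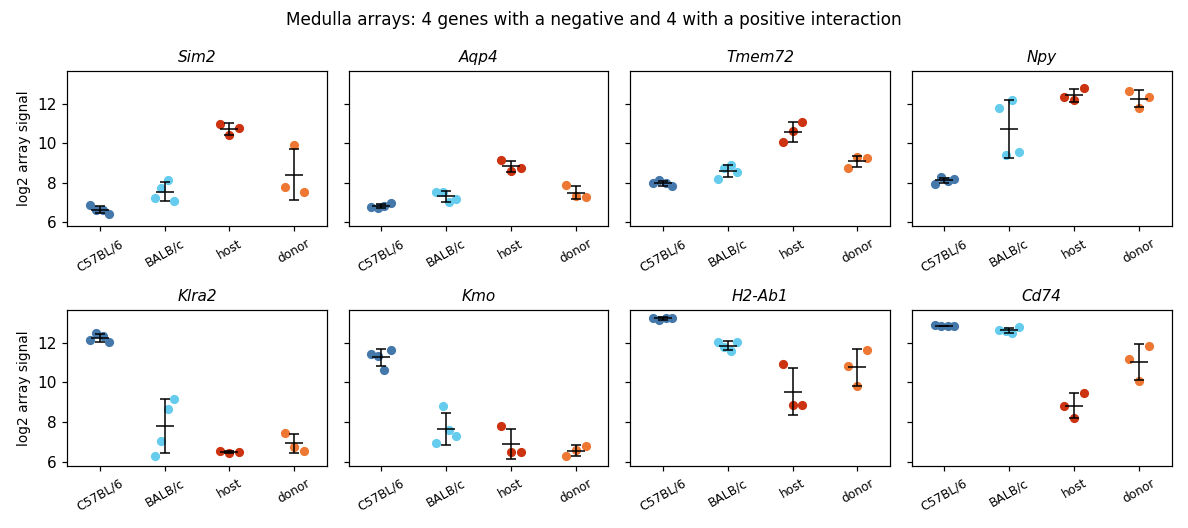
Log2 array signal of Sim2, Aqp4, Tmem72 and Npy (negative interaction) and of Klra2, Kmo, H2-Ab1 and Cd74 (positive interaction) on the 14 medulla arrays, with 1 point per array and black marks for the mean and SD of each group. Host cells are highest for Sim2, Aqp4 and Tmem72. Klra2 and Kmo are highest in homeostatic C57BL/6 cells, with scattered BALB/c arrays below them.

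Several immune programmes had positive medians with no member passing in limma, whereas 2485 of all 14346 genes had an unadjusted p under 0.05. Of 17 interferon-gamma response genes none passed (8 at an unadjusted p under 0.05) and the median was 1.20; Gbp4, a guanylate-binding protein, had an interaction of 3.55 ± 1.15 (adjusted p = 0.14, 0.031 with the fixed graft-mouse block, and 0.011 to 0.37 over all settings), and Cxcl9, a T cell attractant, one of 2.77 ± 0.76 (adjusted p = 0.077, 0.041 with that block, and 0.011 to 0.17 over all settings). Of 19 type I interferon genes none passed (4 unadjusted) and the median was 0.94, as with Mx1, an antiviral GTPase, at 2.54 ± 0.92 (adjusted p = 0.18). Of 17 cytokine and chemokine genes none passed (7 unadjusted) and the median was 1.35, as with Ccl12, a CCR2 ligand, at 3.47 ± 1.10 (adjusted p = 0.13). Of 11 MHC class I genes none passed (3 unadjusted) and the median was 0.36; Tap1, the peptide transporter, had 2.00 ± 0.51 (adjusted p = 0.059, 0.022 with that block, and 0.0083 to 0.16 over all settings). Of 15 pattern recognition receptors none passed (4 unadjusted) and the median was 0.72, as with Tlr4, the lipopolysaccharide receptor, at 3.02 ± 0.90 (adjusted p = 0.11). Of 25 cell cycle genes none passed (3 unadjusted) and the median was 0.33, or -0.01 under 1 of 24 other settings; Mcm6, a subunit of the replicative helicase, had 2.65 ± 0.86 (adjusted p = 0.14, 0.033 with that block, and 0.033 to 0.28 over all settings). With the fixed block, 3 of the interferon-gamma, 1 of the type I interferon, 1 of the MHC class I and 1 of the cell cycle genes passed as higher, 1 cytokine or chemokine gene passed as lower, and no pattern recognition receptor passed. Hypoxia and glycolysis genes (14 tested, none passing, none unadjusted) and osmotic stress genes (8 tested, none passing, 2 unadjusted) had medians of -0.05 and 0.00 whose sign changed between settings. Slc6a12, the betaine transporter of the osmotic list, had an interaction of -1.98 ± 0.49 that lay just outside the threshold (adjusted p = 0.0502) and passed under 10 of 24 settings, the random mouse block among them (0.0014 to 0.20 over all settings).

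Markers of lymphocytes were checked because they could enter the gate. None of 9 T cell, 6 B cell, 7 natural killer cell and 4 neutrophil genes passed in limma, and 1 of them, Klrd1, had an unadjusted p under 0.05. The natural killer list averaged 7.18 to 8.63 in host and 7.03 to 7.25 in donor arrays, and its receptor gene Klrd1 read 11.29, 5.84 and 6.50 in host cells, so host replicate 1 stood apart. The Klrd1 interaction was 3.15 ± 1.33 (adjusted p = 0.23), and without that array it was 4.86 and passed (adjusted p = 0.015; 0.015 to 0.50 over all settings). The median of 14 endothelial genes was -0.45 and that of 11 fibroblast and pericyte genes -0.33, with none passing (3 and 1 unadjusted).

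**Figure D4:**
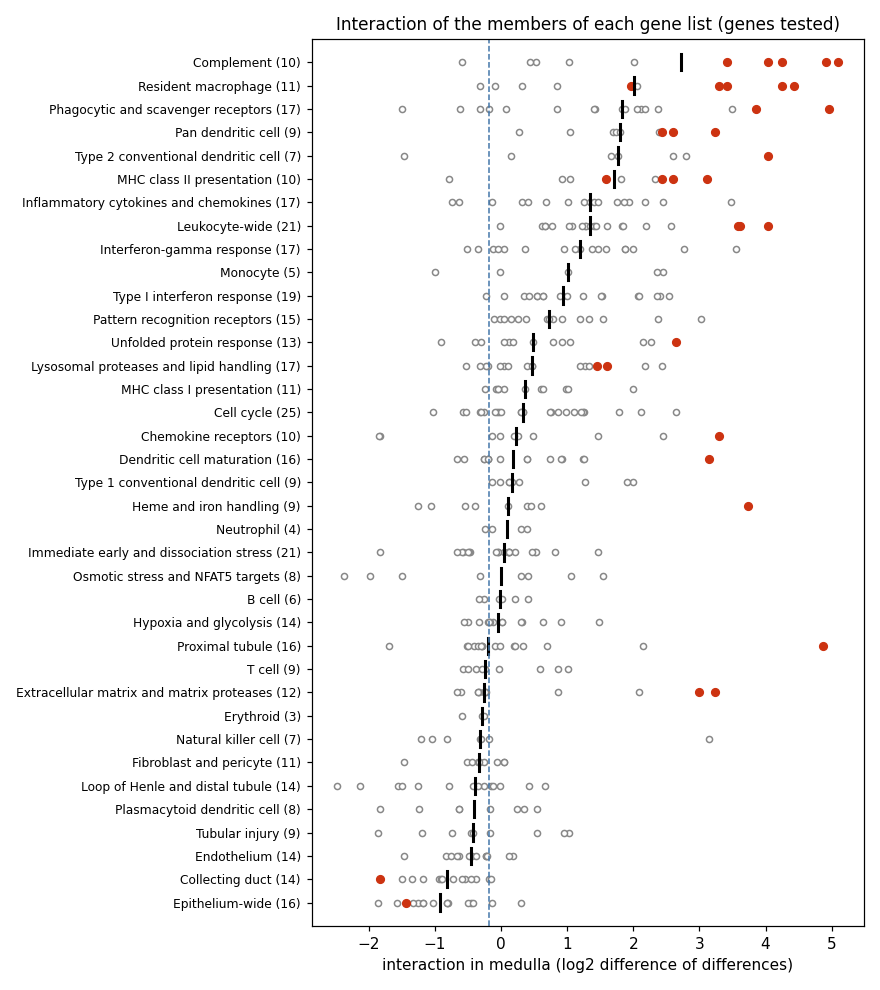
Interaction in medulla (x axis, log2) of each tested member of 37 gene lists (y axis, ordered by median, number tested in brackets), with filled red points for genes that passed, open points for the others, a black bar at each list's median and a dashed line at the median of all genes (-0.19). Complement is highest with a median of 2.72 and epithelium-wide genes lowest with -0.92.

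The same interaction in cortex, from the 14 other arrays, passed in 111 genes (0.774%), 49 higher and 62 lower, on arrays from the same 11 mice. Whether higher or lower calls were the more numerous depended on the setting. After a second quantile normalization 27 were higher and 17 lower (61.4% higher, against 44.1%), and after centring 72 and 65. With the fixed graft-mouse block they were 106 and 272, with no filter on dim genes 91 and 407, and with array weights 394 and 1652. Of the 108 genes higher in medulla, 25 also passed as higher in cortex (0.342% of all genes tested) and 106 were above 0 there; of the 55 lower genes 1 passed as lower (0.432% of all genes tested). Complement and macrophage genes were among the 25, with cortex interactions of 5.31 for C1qc (adjusted p = 5.3e-09), 5.18 for C3ar1 (adjusted p = 9.0e-08) and 4.74 for Adgre1 (adjusted p = 1.1e-04). In cortex the leukocyte-wide mean was 9.23 to 10.93 in host and 9.84 to 10.66 in donor arrays, which overlapped, while the resident macrophage mean was 8.57 to 9.13 in host and 10.56 to 10.99 in donor arrays, which did not. Leukocyte-wide Lcp1, Cd52 and Laptm5 had cortex interactions of 0.67, 0.28 and 0.16, none of which passed.

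Tested directly, medulla minus cortex, 3 genes passed (0.0209%), all higher. Gatm differed by 4.71 ± 0.62 (adjusted p = 0.0020), and the call held in all 37 other settings. Its cortex means were 12.07 in C57BL/6, 12.10 in BALB/c, 12.15 in host and 12.34 in donor cells, so its host mean was low in medulla only. The proximal tubule list, which holds Gatm, averaged 11.38 in host and 11.41 in donor cortex, against 7.29 and 7.53 in medulla. In homeostatic C57BL/6 and BALB/c cells that list averaged 10.18 and 9.03 in cortex, and 7.98 and 7.97 in medulla. The part of tubule RNA in the Gatm values was not tested. Lcp1 differed by 2.95 ± 0.49 (adjusted p = 0.031), with host means of 8.97 in medulla and 12.42 in cortex, and the call was lost when any of 17 of the 28 arrays was left out (adjusted p = 0.051 to 0.10). Hspb8, a small heat shock protein that did not pass in medulla (interaction -0.11), differed by 2.30 ± 0.40 (adjusted p = 0.046) through a host cortex mean of 9.54, and the call was lost when any of 22 arrays was left out (adjusted p = 0.054 to 0.11). For the other genes that passed in medulla, C1qc and C3ar1 included, no difference between regions passed.

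**Figure D5:**
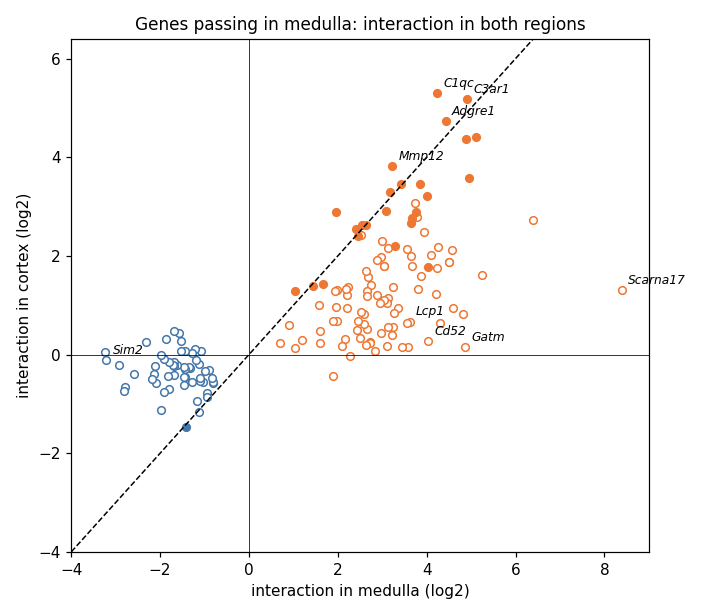
Interaction in medulla (x axis, log2) against interaction in cortex (y axis, log2) for the 163 genes that passed in medulla, orange for higher and blue for lower, filled where the gene also passed in cortex, with a dashed line at equality. C1qc, C3ar1 and Adgre1 lie near the dashed line, and Gatm, Lcp1, Cd52 and Scarna17 lie far below it.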

How the data were processed

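Total RNA of sorted kidney dendritic cells was amplified, biotin-labelled and hybridised to Affymetrix arrays, 1 array per cell population and mouse, per the labels' protocols. Per the submitters' processing notes, the authors used RMA (oligo) to make the deposited log2 signals; the sources used here name no version or annotation build. RMA signals are relative within an array, and weak probes are compressed. The deposited arrays did not share 1 distribution. Their SD over probesets ran from 1.46 (BALB/c medulla replicate 1) to 1.84 (donor cortex replicates 1 and 2).

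Of 22549 probesets, the 20646 with 1 gene symbol were used (551 had several symbols, 1352 none listed). The probeset with the highest mean stood for each of 19272 symbols, and genes above the array's 40th percentile on at least 3 arrays were tested (14346). limma 3.58.1 (R 4.3.3) was fitted with 8 group means over all 28 arrays (20 residual degrees of freedom), with 2-sided Benjamini-Hochberg adjusted p-values and a threshold of 0.05. The code was tested on simulated data. The number of arrays limits the precision, and p-values measure the spread between arrays: the 28 came from 11 mice, each giving cortex and medulla (and each graft, donor and host cells), and were fitted as independent except where a mouse block is named.

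The interaction and the gene lists were chosen with earlier results of these data known. Genes named are the 12 highest and 12 lowest interactions that passed (predicted genes left out), and the sort markers. Also named are up to 4 passing members of each list, and up to 2 members of lists with none. Csf1r, Cd36 and Ifi30 were named beyond this rule after their values were seen, and are given without a range over settings. Others passed medulla minus cortex, lie next to the threshold, or are stated as chosen after their values were seen. Residuals of donor and host arrays correlated at 0.055, 0.277 and 0.181 within mice 6, 7 and 8, and at -0.206 to 0.005 between them; the pairing comes from the labels. Just inside the threshold lay Msh5, B130006D01Rik and Olfr374 (adjusted p = 0.0496 each), and just outside Slc6a12, Dock4 and Ehd2 (0.0502 each). Alternatives were the mouse as a random or fixed block, other filters and normalizations, array weights and each array left out.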

Additional observations from a re-analysis of the deposited data

Results flagged for a closer look

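Among the named genes, 17 of 186 combinations of a gene and a homeostatic medulla group had 1 array far from the others (chance flags about 1 in 20 groups, and groups of 3 were not examined). Of the 17, 5 fell on BALB/c replicate 1: Tlr4 at 6.85 (others 9.85 to 9.96), Tap1 at 7.47 (others 8.37 to 8.54), Nfkbia at 7.86 (others 8.87 to 8.94), Hpgd at 12.55 (others 12.99 to 13.07) and Blk at 8.57 (others 7.54 to 7.72). BALB/c replicate 3 stood apart for Scarna17 at 11.89 (others 6.97 to 7.68) and Krt8 at 11.27 (others 9.38 to 9.64). BALB/c replicate 4 stood apart for Cd3g at 10.43 (others 6.67 to 7.24) and Ccr9 at 7.28 (others 6.90 to 6.95).

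In C57BL/6, replicate 1 stood apart for Gpr65 at 12.62, Prr15 at 7.91 and Cd74 at 12.89. Replicate 2 stood apart for H2-Ab1 at 13.14 and Csf3r at 8.49, replicate 3 for Zfp791 at 7.76, and replicate 4 for C5ar1 at 10.98 and Tap1 at 9.69. For Gpr65, Cd74 and H2-Ab1 the distance to the nearest other array was small beside the interaction.

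The interaction differed between medulla and cortex for Gatm by 4.71, for Lcp1 by 2.95 and for Hspb8 by 2.30, by an interaction contrast in limma.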

How the results depend on the processing

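No named gene that passed changed sign. The balance of higher and lower calls changed between settings, and so did the sign of some list medians. The 163 genes of the medulla interaction (108 higher, 55 lower) became 254 with the graft mouse as a fixed replicate block (105 lower), 219 with a random block, 96 on the medulla arrays alone (18 lower), and 350 with array weights (170 higher, 180 lower). The lower genes became 114 with no filter on dim genes and 31 with a strict one. Leaving out 1 array gave 90 to 201 genes, 57 to 134 higher and 27 to 91 lower.

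Leaving out 1 array gave 50 to 134 genes for donor against host, 230 to 2353 for BALB/c against C57BL/6, 60 to 1087 for donor against BALB/c, 39 to 539 for the cortex interaction and 1 to 15 for medulla minus cortex; cortex arrays were left out as a choice made after seeing the data. With the fixed block, the counts were 2379 for BALB/c against C57BL/6, 801 for donor against BALB/c, 378 for the cortex interaction (244 with the random block) and 6 for medulla minus cortex. With no filter they were 3485, 997 and 498 for the first 3, and with a strict filter 419 for BALB/c against C57BL/6 and 47 for cortex. A second quantile normalization gave 855, 44 and 1 for BALB/c against C57BL/6, cortex, and medulla minus cortex, and centring gave 747 for the first. Medulla arrays alone gave 236 for BALB/c against C57BL/6 and 97 for donor against BALB/c. Array weights gave 221 for donor against host, 2046 for cortex and 8 for medulla minus cortex. The strain comparison had 71.2% of its 1307 calls higher, and 41.5% after centring; donor against host had 60 higher and 25 lower calls, and 49 and 57 without host replicate 3. Over 24 settings the median of the osmotic stress list changed sign in 12, that of B cell genes in 11 and that of hypoxia genes in 5. The cause was not tested, apart from the number of genes or arrays that a setting itself changes.

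Of 47 named genes that passed, 20 passed under every setting in which they were tested, among them C1qc, C3ar1, Mrc1, Gatm, Adgre1 and Aqp4; 16 lost the call under 1 to 3 settings and 11 under more. The blocks took the call from none of them. Probes near background, as in host cells for 45 of the 108 higher genes (mean under 7.62), limit how low a value can be read.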
